A study of Drosophila melanogaster with 4 samples.

Results

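Compact H3K27ac regions inside the autosomal arms of the Drosophila melanogaster genome, called strong by a limit on their deposited value, are described here. H3K27ac, an acetyl mark on the tail of histone H3, was followed by ChIP-seq, in which chromatin fragments carrying the mark are pulled down with an antibody and sequenced. The material was wild-type Oregon-R embryos aged 14 to 16 h, with 2 ChIP libraries (replicates 1 and 2) and 2 input libraries. All 4 libraries share this strain, genotype and age, so no genotype or treatment was compared, and the labels do not say whether each replicate was a separate embryo collection. Whole embryos were used, so a region marked in a few cells and a region marked weakly in many cells cannot be told apart. Each ChIP library has a deposited list of its enriched regions (clusters), and the replicate set has a combined list. Every cluster bears a value of its own whose scale is not stated.

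The members were the clusters of the combined list that met every part of a single rule. A member lay on 2L, 2R, 3L or 3R with its midpoint more than 2 Mb from both ends of the assembled arm, was narrower than 4000 bp and had a combined value of at least 0.7. It also overlapped a cluster of each replicate list by at least 1 bp, was at least 500 bp from both neighbours and was less than 20 kb from the nearer of them. Of the 7474 combined clusters, 270 were members, with 63 on 2L, 73 on 2R, 63 on 3L and 71 on 3R. Together they spanned 870.8 kb. By steps, 4874 combined clusters lay in the arm interiors, 3195 of these were in both replicate lists, 1523 of those were narrow, 347 of the narrow ones were strong, 276 of these kept 500 bp from both neighbours, and 270 had a neighbour within 20 kb. Members were thus 8.45% of the interior clusters found in both lists. The members were chosen by combined value, width, overlap and gaps, so these quantities are given as a description and without a test.

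In flies the acetyl group of H3K27ac is placed by the acetyltransferase CBP, the product of nejire, and occupies the same lysine that Polycomb repressive complex 2 methylates in silent genes. The mark is found on the nucleosomes next to active promoters and enhancers, and a narrow stretch of it commonly spans a single such element with its flanking nucleosomes, whereas wide stretches cover groups of elements or whole gene bodies. At this stage of embryogenesis the organs have formed and muscle, nervous system and cuticle are differentiating. Genes and sequences at the members are not given, since the files use FlyBase release 5 and no annotation or genome of that release was used here.

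**Figure D1:**
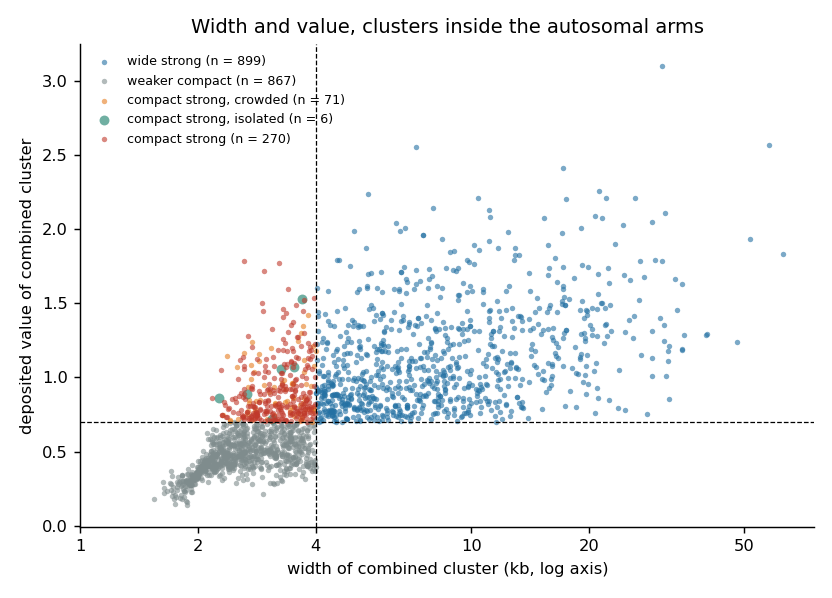
Width (kb, log axis) against deposited value for clusters inside the autosomal arms that were in both replicate lists. Each point is a combined cluster and dashed lines mark 4 kb and a value of 0.7. The 270 compact strong clusters fill the upper left, above the 867 weaker compact clusters and beside the 899 wide strong clusters.

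Combined widths ran from 2174 to 3996 bp, with a median of 3258 bp and quartiles of 2858 and 3586.5 bp. Combined values ran from 0.70 to 1.79 with a median of 0.84 and quartiles of 0.76 and 1.02. Most members lay low in this range, 199 of them below 1, 64 from 1 to below 1.5 and 7 at 1.5 or more. As the plot of width against value shows, strong clusters were a minority among narrow ones, at 22.8% of the 1523 narrow interior clusters in both lists. Within the members, width and value were only loosely related, with a Spearman rho across the 270 clusters of 0.19 for combined values, 0.28 for replicate 1 and 0.31 for replicate 2. Among the weaker compact clusters, which met every part of the rule but had values under 0.7, the same rho was 0.55, 0.76 and 0.76. The limits on value and width cut the range of both sets and so bear on these correlations.

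At the limit of 0.7 the values ran on without a gap. The members nearest above it lay on 2L from 20453492 to 20457296 (combined value 0.703), on 3R from 11093706 to 11096786 (0.704), on 2R from 18953268 to 18956228 (0.706), on 3L from 17366978 to 17370432 (0.708) and on 3R from 20270636 to 20273996 (0.709). The clusters nearest below it lay on 3R from 5211336 to 5214600 (0.698), on 2L from 11271162 to 11273636 (0.698) and from 20895736 to 20899650 (0.697), and on 3R from 21867224 to 21869798 (0.696) and from 6014090 to 6017920 (0.696). Over both replicate lists the 5 clusters just below had values from 0.71 to 0.83, and the 5 just above had 0.61 to 0.86. The sets on either side of the limit overlapped in each library.

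Each member corresponded to a single cluster in each replicate list, and the edges lay close together. All 270 overlapped exactly 1 cluster in replicate 1 and exactly 1 in replicate 2. In replicate 1 none of those clusters touched another combined cluster, and in replicate 2 a single one did, so 100% and 99.6% were matched to no other cluster, a mean of 99.8 ± 0.262% (SD, n = 2). Among the wide strong clusters, which met the rule but for a width of at least 4000 bp, the matched share was 80.9% in replicate 1 and 83.3% in replicate 2. Among the weaker compact clusters it was 99.8% and 99.0%, so a single match was common to narrow clusters of either strength. Overlap and width were parts of the rule, and these shares have no test.

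The start or end of a member differed between the replicate lists by a median of 103 bp, with quartiles of 47 and 210 bp and a largest offset of 1554 bp. Of all member edges, 48.5% differed by at most 100 bp and 5.37% by more than 500 bp. The median offset was 159 bp in the 858 weaker compact clusters with a single cluster in each list, and 159.5 bp in the 670 such wide strong clusters. Of the weaker compact clusters, 646 were at least as wide as the narrowest member. The 637 of these with a single cluster in each list had a median offset of 185 bp. By combined width the 646 were still narrower than the members, at a median of 2774 bp against 3258 bp. The offset is a single value from 2 libraries and has no test. The replicate clusters of every member overlapped each other, and in 251 members (93.0%) the overlap was at least 80% of each. The median overlap was 92.7% of the wider replicate cluster. The combined cluster was wider than the outer span of both replicate clusters in 190 members, by a median of 61 bp over all 270.

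Most members stood above the middle of each replicate list, and some stood below it. In replicate 1 the member values ran from 0.54 to 1.91, with a median of 0.86 and quartiles of 0.76 and 1.00. In replicate 2 they ran from 0.65 to 3.02, with a median of 0.96 and quartiles of 0.86 and 1.14. The mean of the medians was 0.91 ± 0.07 (SD, n = 2), and the median widths of 2897 and 2983.5 bp gave 2940 ± 61.2 bp. A member stood at a median percentile of 64.7 among all replicate 1 clusters and 68.0 among all replicate 2 clusters. The quartiles were 56.4 and 75.2 in replicate 1 and 60.1 and 78.5 in replicate 2, and the lowest were 28.9 and 39.2. Wide strong clusters stood at 79.5 and 80.9 and weaker compact clusters at 23.3 and 27.1, an order that the rule itself sets. In replicate 1, 38 members had a value under 0.7, and in replicate 2 only 2 did, while no member was under 0.7 in both. Values of at least 1 were found in both lists for 60 members, from 69 in replicate 1 and 116 in replicate 2. Both replicate libraries went into the combined list, so these values are not independent of the rule.

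**Figure D2:**
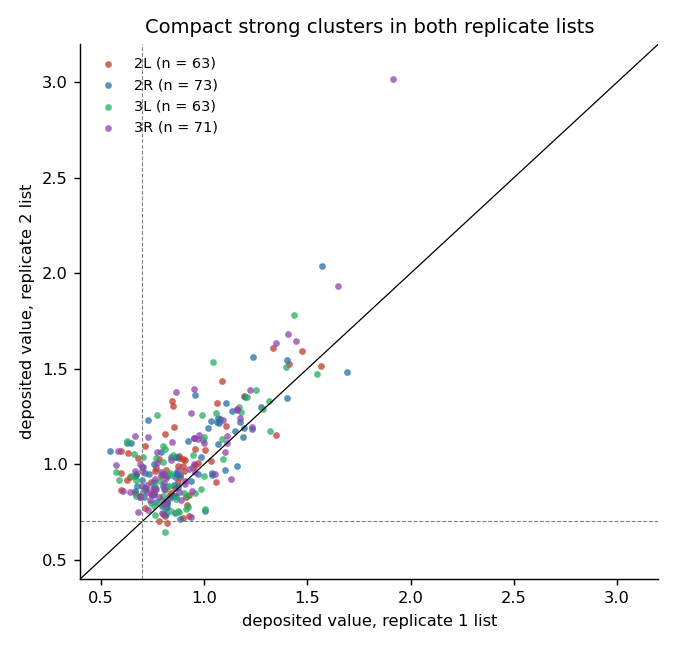
Deposited value of each of the 270 compact strong clusters in the replicate 1 list (x axis) and the replicate 2 list (y axis), coloured by arm, with the line of equal values and dashed lines at 0.7. Most points lie above the line, and a single cluster of 3R stands far from the others at 1.91 and 3.02.

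The order of members was shared between the libraries in part. Across the 270 members the replicate values gave rho 0.53 (Spearman) and r 0.74 (Pearson), given as a description since members are not independent and the limit on value narrows their range. The wide strong clusters, with a broader range of values, had a rho of 0.88 and the weaker compact clusters 0.49. Replicate 2 had the higher value in 203 members (75.2%), and the excess of replicate 2 over replicate 1 had a median of 0.12 and an SD of 0.18 over the members. In the weaker compact clusters replicate 2 was higher in 65.3% and in the wide strong clusters in 77.2%. The values of the lists differed by less than 0.1 in 97 members and by more than 0.3 in 34. Each value belongs to its own list, so the shift between lists is no measure of acetylation.

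The strongest member lay on 2R from 5093726 to 5096354, a cluster of 2628 bp with a combined value of 1.79. Its value was 1.57 in replicate 1 and 2.04 in replicate 2, a mean of 1.80 ± 0.33 (SD, n = 2). Its edges differed little between the lists, with starts 67 bp and ends 27 bp apart. The clusters on either side in the combined list were weaker, at 0.88 and 0.21. Few bases around it were acetylated, at 11.8% of the 50 kb on either side in replicate 1 and 9.60% in replicate 2.

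The member on 3R from 20144008 to 20147238 (3230 bp, combined value 1.77) had values of 1.65 and 1.93 in replicates 1 and 2. Its ends differed by 5 bp between the lists. The nearest neighbour in the combined list was 15816 bp away.

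The third member by combined value, on 3R from 17127002 to 17129956, stood apart from the others. Its combined value of 1.72 was below both replicate values, 1.91 in replicate 1 and 3.02 in replicate 2, a mean of 2.46 ± 0.78 (SD, n = 2). Its replicate clusters of 1536 and 1335 bp shared only 26.4% of the wider, the lowest overlap among the 270, where the next lowest was 58.2%. On its left, 932 bp away, lay a combined cluster of 5454 bp with a value of 2.24. On its right, 4126 bp away, lay a cluster of 1002 bp with the value 3.33, which overlapped no cluster of either replicate list. A combined value below both replicate values was found in 97 of the 270 members and a value above both in 0.

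The next members by combined value differed in the company they kept. On 3L from 18792012 to 18795406 the value was 1.599 (replicates 1.43 and 1.78), and acetylated bases took 59.5% and 66.4% of the surrounding 50 kb on either side in replicates 1 and 2. On 2R from 18585374 to 18589336 it was 1.53 (replicates 1.69 and 1.48), 2320 bp from a cluster of 30.8 kb with a value of 1.79. On 3R from 4483310 to 4487046 it was 1.52 (replicates 1.44 and 1.64), between neighbours of 1.13 and 1.21 that were 2112 and 1630 bp away. Each of these had a cluster with a value above 1 on at least 1 side.

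On 2L from 13902666 to 13905588 the combined value was 1.501 (replicates 1.47 and 1.59). Its left neighbour, a cluster of 20.7 kb with a value of 0.76, was 6808 bp away and its right neighbour 60044 bp away. On 3R from 9932112 to 9935666 it was 1.49 (replicates 1.41 and 1.68), between neighbours of 0.38 and 0.35. On 3R from 18981110 to 18984402 it was 1.46 (replicates 1.35 and 1.63), between neighbours of 0.40 and 0.49. A pair of 2L members shared the tenth place and the second of that arm with the same combined value of 1.45, from 10218490 to 10222194 (replicates 1.57 and 1.51) and from 12973608 to 12976550 (replicates 1.33 and 1.61). The strongest on 3L after the one above lay from 21507854 to 21511216 at 1.43 (replicates 1.55 and 1.47). In the strongest members named here the replicate values ranged from 1.33 to 1.91 in replicate 1 and from 1.47 to 3.02 in replicate 2.

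The narrowest members had values within the range of the set, some of them low in it. They lay on 3L from 19853658 to 19855832 (2174 bp, combined value 0.86), on 2L from 18688484 to 18690772 (2288 bp, 1.05), from 3421412 to 3423710 (2298 bp, 0.75) and from 9757542 to 9759880 (2338 bp, 0.84), and on 3R from 6156112 to 6158416 (2304 bp, 0.75). In replicate 1 the values were 0.63 on 3L, 0.85, 0.64 and 0.92 on 2L in that order, and 0.69 on 3R. The quartiles over all members there were 0.76 and 1.00. In replicate 2 the values ran from 0.79 to 1.31, where the quartiles over all members were 0.86 and 1.14.

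Some members differed widely between the lists. Apart from the 3R member at 17127002, the largest excess in replicate 2 was on 2R from 16467274 to 16470150, at 0.54 in replicate 1 and 1.07 in replicate 2. It was followed by 3R from 5516084 to 5519210 (0.86 and 1.38), 2R from 14661906 to 14665868 (0.73 and 1.23) and the narrowest member, on 3L from 19853658 (0.63 and 1.12). The largest excess in replicate 1 was smaller, on 2R from 4000058 to 4002552 (1.00 in replicate 1 and 0.76 in replicate 2). Next came 3L from 8561032 to 8564708 (1.01 and 0.76), 3R from 5962864 to 5966452 (0.94 and 0.72), the strong 2R member at 18585374 (1.69 and 1.48) and 3R from 14204742 to 14207694 (1.13 and 0.92). Over all members the value of replicate 2 minus that of replicate 1 thus ran from -0.25 to 1.10.

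Members were found on all 4 arms. Arm interiors held 3.31 members per Mb on 2L, 4.26 on 2R, 3.07 on 3L and 2.97 on 3R, against 3.35 over all 4. As a share of the interior clusters found in both lists, members made up 9.05% on 2L, 9.40% on 2R, 7.52% on 3L and 8.03% on 3R. The combined median value was 0.85 on 2L, 0.87 on 2R, 0.82 on 3L and 0.83 on 3R. The medians of the replicate values were 0.91 ± 0.08, 0.91 ± 0.06, 0.89 ± 0.07 and 0.90 ± 0.09 (SD, n = 2). Replicate 2 was higher on every arm, so this SD reflects a shift between lists and does not measure differences between arms. In the same order of arms the medians were 0.851, 0.864, 0.835 and 0.838 in replicate 1. They were 0.970, 0.954, 0.938 and 0.966 in replicate 2. The lowest was 3L in both, while the highest was 2R in replicate 1 and 2L in replicate 2. Differences between arms were not tested. The combined median width ran from 3212 bp on 2R to 3288 bp on 3L.

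Along 2L the members leaned to the telomere side, while on the other arms their split was closer to that of all interior clusters. On 2L, 44 of 63 members (69.8%) lay on the telomere side of the arm's midpoint. On that arm 54.3% of all interior clusters in both lists did. So did 51.3% of the weaker compact clusters and 51.5% of those at least as wide as the narrowest member. On 2R the telomere side held 42.5% of the members, 48.4% of all such interior clusters and 51.5% of the weaker compact clusters. The same shares were 50.8%, 51.2% and 46.7% on 3L, and 52.1%, 47.2% and 42.0% on 3R. Over the 4 arms it held 144 members (53.3%) against 50.1% of all and 47.5% of the weaker compact clusters. These shares come from the combined list alone and have no test. In 79 full bins of 1 Mb the number of members ran from 0 to 9 with a median of 3, and 6 bins held none. No expected count stands beside these numbers. The fullest bins, with 9 members each, were on 2L from 8000001 to 9000000 and on 3L from 21000001 to 22000000. The empty bins were on 2L from 15000001 and from 17000001, on 3L from 5000001, 10000001 and 13000001, and on 3R from 21000001. Of these, the bin on 3L from 13000001 to 14000000 held 42 interior clusters found in both lists and yet no member, whereas that on 2L from 15000001 to 16000000 held 12. Over the 79 bins, members and all interior clusters in both lists had a Spearman rho of 0.48, a description, since members are counted among the clusters.

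**Figure D3:**
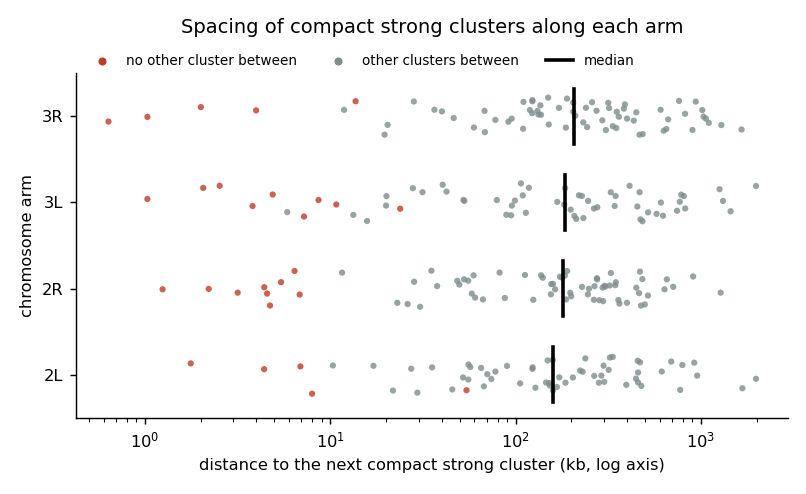
Distance (kb, log axis) from each compact strong cluster to the next on the same arm, for 266 distances on 4 arms, with the median of each arm as a bar. Red points mark members with no other combined cluster between them, most of which lie at the short end.

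Most members were far apart, with a small number of close pairs. The median distance to the next member on the same arm was 184.9 kb over 266 distances, from 159.1 kb on 2L to 207.6 kb on 3R. In 34 cases the next member was under 20 kb away and in 25 under 10 kb. In 13 cases it was more than 1 Mb away. The longest stretches without a member were 1987 kb on 3L between 4748042 and 6735136 and 1986 kb on 2L between 14601554 and 16587300. As the plot of spacing shows, 28 pairs of members were direct neighbours in the combined list, which took in 55 members (20.4%). They formed 26 runs of 2 and 1 run of 3, the latter on 2R at 3984320, 3992888 and 4000058 with combined values of 1.23, 1.14 and 0.86. Among weaker compact clusters, which are more numerous, 38.2% had such a direct neighbour of their own kind. Of the 4874 interior combined clusters, 270 were members and 867 weaker compact clusters. The shares of 20.4% and 38.2% are not adjusted for this and do not compare how readily each kind pairs.

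The closest pair lay on 3R, from 5337212 to 5340268 and from 5340904 to 5344460, with 636 bp between them. The left cluster had values of 0.75 and 0.87 in replicates 1 and 2 and the right cluster 1.00 and 1.11. The next pairs were on 3L from 11682652 to 11690728 and on 3R from 3849964 to 3857358, each with 1032 bp between the members. They were followed by 2R from 12901908 to 12909456 (1246 bp) and 2L from 3415854 to 3423710 (1768 bp). In the 2L pair both members were lower in replicate 1, at 0.63 and 0.64, than in replicate 2, at 1.06 and 0.93.

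In the combined list the nearer neighbour of a member was a median of 2267 bp away and the farther one 8348 bp. In 213 members (78.9%) the nearer gap was under 5 kb, and in 87 (32.2%) both gaps were. These shares were 76.1% and 26.5% among weaker compact clusters and 79.2% and 30.5% among wide strong clusters. The nearer neighbour was itself narrower than 4000 bp in 63.7% of members, and was another member for 33. It was found in both replicate lists for 70.0% and in neither for 13.3%. The shares narrow, in both lists and in neither were 66.2%, 65.5% and 16.4% for weaker compact clusters. For wide strong clusters they were 60.7%, 71.4% and 14.1%. The rule limited the gaps of the combined list, which drew on both libraries. Gaps in the replicate lists are thus not independent of the rule and have no test. There the nearest neighbour was a median of 3506.5 bp away in replicate 1 and 3288.5 bp in replicate 2, or 3398 ± 154 bp (SD, n = 2). The distance was 3947 and 3784 bp for weaker compact clusters, a difference, member minus weaker, of -468 ± 38.9 bp with the same direction in both replicates. For the differences of neighbours and flanks given below whose replicates share a direction, the exact sign-flip permutation p was 0.5, two-sided. That is the smallest that 2 libraries allow. Against the wide strong clusters, at 3519 and 3250 bp, the replicates differed in direction.

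The neighbours of members had somewhat higher values than those of weaker compact clusters. The median value of the nearest neighbour was 0.69 in replicate 1 and 0.78 in replicate 2 for members, against 0.65 and 0.69 for weaker compact clusters, a difference of 0.07 ± 0.03 (SD, n = 2). It kept its direction in both replicates when the weaker compact clusters were held to the width of the narrowest member or more (0.07 ± 0.02). It did not with a width limit of 3000 bp for both sets, where the replicates gave -0.02 and 0.05. Wide strong clusters had neighbours of 0.68 and 0.74. A neighbour of at least 20 kb, a broad domain, was next to 8 members (2.96%) in replicate 1 and 5 (1.85%) in replicate 2. In the same order, the share was 0.923% and 0.577% of the weaker compact clusters. Of those at least as wide as the narrowest member it was 1.08% and 0.619%. Wide strong clusters had such a neighbour in 1.89% and 1.78%, nearly the same as members in replicate 2. The difference from all weaker compact clusters was 1.66 ± 0.541 percentage points and rests on few clusters. Neighbour widths did not differ beyond the spread, with medians of 2820.5 and 3150.5 bp for members and 2817 and 2938 bp for weaker compact clusters.

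Members were local peaks more often than weaker compact clusters, which the choice of members by value favours. In replicate 1, 123 members (45.6%) and in replicate 2, 130 (48.1%) had a higher value than both neighbours. Among weaker compact clusters this was so for 11.0% and 12.3%, and among wide strong clusters for 67.5% and 67.9%. Across members, their own value had little relation to that of the nearest neighbour, with a Spearman rho of 0.11 in replicate 1 and -0.00239 in replicate 2. With the covered share of the surrounding 50 kb on either side it was 0.10 and 0.00953.

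**Figure D4:**
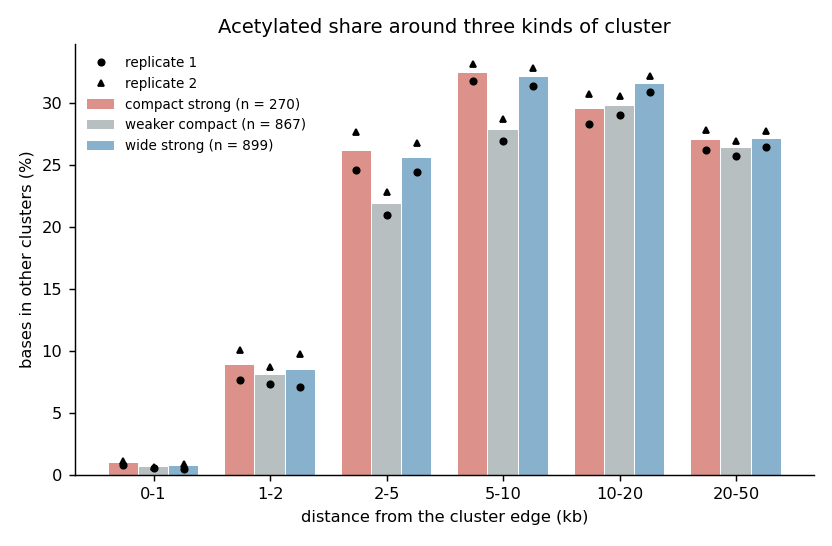
Share of bases (%) lying in other clusters of the same replicate list, by distance (kb) from the cluster edge, both sides together. Bars are the mean of 2 replicates and points the replicates. Compact strong clusters lie above weaker compact clusters from 2 to 10 kb and nearer to them farther out.

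The surroundings of members were richer in acetylated bases than the arm interiors at large. Other clusters covered 26.2% of the 50 kb on either side of a member in replicate 1 and 28.02% in replicate 2, or 27.1 ± 1.29%, while the arm interiors as a whole were covered at 21.8% and 22.9%. The rule, which asks for a neighbour within 20 kb, bears on this difference. Single members ranged from 0 to 61.8% in replicate 1 and from 0 to 66.4% in replicate 2. Weaker compact clusters, chosen with the same limits on gaps, had 26.02 ± 0.965% and wide strong clusters 27.5 ± 0.966% (SD, n = 2). The gaps themselves were not matched. Median nearer and farther combined gaps were 2506 and 9828 bp for weaker compact clusters, against 2267 and 8348 bp for members. The members exceeded the weaker compact clusters by 1.09 ± 0.32 percentage points (replicate 1, 0.863, and replicate 2, 1.32). The direction was lost in replicate 1 in a window of 100 kb (-0.04 and 0.09) and against the weaker compact clusters no narrower than any member (-0.05 and 0.35).

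By distance, the difference was widest between 2 and 10 kb from the edge, as the profile of the flanks shows. From 2 to 5 kb, other clusters covered 26.1 ± 2.18% around members and 21.9 ± 1.34% around weaker compact clusters, a difference of 4.26 ± 0.84 points. From 5 to 10 kb the shares were 32.4 ± 0.948% and 27.8 ± 1.23%, a difference of 4.63 ± 0.28 points (SD, n = 2). Against weaker compact clusters no narrower than any member the differences were 3.72 ± 0.64 and 3.71 ± 0.13 points, in the same direction in both replicates. From 10 to 20 kb the replicates disagreed in sign (-0.27 ± 0.54), and against the wide enough weaker clusters members were lower (-0.995 ± 0.60). From 20 to 50 kb members were higher than all weaker compact clusters by 0.67 ± 0.29 points in both replicates. They were lower in both than those at least as wide as the narrowest member (-0.45 ± 0.21). The direction there thus turned with the comparison set. Wide strong clusters had nearly the same profile as members up to 10 kb, with differences of 0.57 ± 0.56 and 0.31 ± 0.09 points, and were covered more from 10 to 20 kb, where members minus wide strong clusters came to -2.04 ± 0.75 points.

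**Figure D5:**
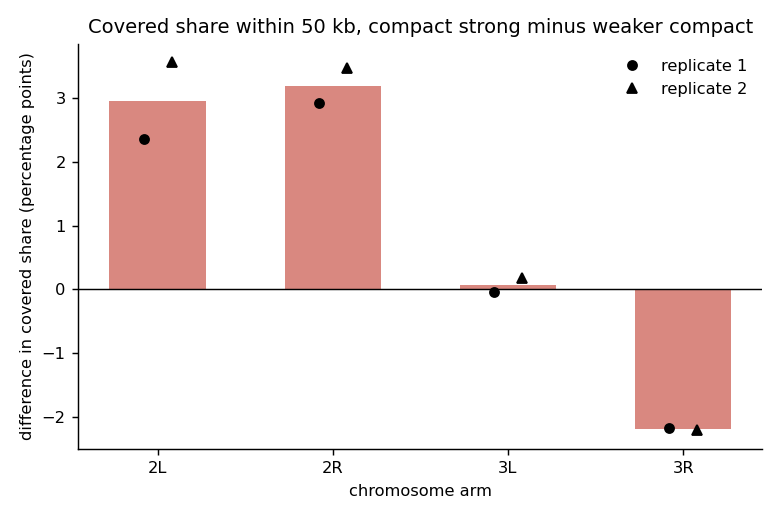
Difference in the covered share of the 50 kb on either side (percentage points), compact strong minus weaker compact clusters, by arm. Bars are the mean of 2 replicates and points the replicates. Both replicates lie above 0 on 2L and 2R and below 0 on 3R.

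The surroundings of members differed between the arms, as the plot of differences by arm shows. On 2R other clusters covered 31.7 ± 1.48% around members and 28.5 ± 1.09% around weaker compact clusters, and on 2L 26.5 ± 1.52% and 23.6 ± 0.667%. On 3L the shares were 25.6 ± 1.37% and 25.6 ± 1.22%, and the difference changed direction between replicates 1 and 2 (-0.05 and 0.17 points). On 3R members had the lower share, at 24.2 ± 0.818% against 26.4 ± 0.841% (SD, n = 2). These values used all weaker compact clusters. None is given by arm against those at least as wide as the narrowest member. The neighbours' median value was higher for members on every arm in both replicates, by 0.03 ± 0.01 on 2L, 0.06 ± 0.02 on 2R, 0.04 ± 0.01 on 3L and 0.08 ± 0.04 on 3R.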

How the data were processed

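H3K27ac was measured in 2 ChIP libraries and 2 input libraries of 14 to 16 h Oregon-R embryos, grouped by sample title. Bowtie 0.12.7 was used for alignment, per the submitters' processing notes. Peak caller, threshold and joining of replicates: not given in the sources used here. There is 1 list deposited per ChIP library and 1 for the replicate set, with positions on FlyBase release 5, per the file headers. The score of a region, as the authors deposited it, is called its value here, and its scale is not stated. Sets of clusters were compared within a list. Differences and means of a member's value between replicates, and limits applied to more than 1 list, set values of different lists side by side. Whether the lists share a scale is not stated. Depth is unknown, as the lists give no read counts, and no interval that needs it is printed. No list of the inputs was analysed here, so no background in input stands beside the values.

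Width is end minus start and a gap is the next start minus the previous end. A region of replicate 1 starts at 0, so positions may be off by 1 base. Covered shares count bases of other clusters of the same replicate list within 50 kb of each edge. Differences were taken within each replicate and given as mean ± SD of 2. The test was an exact two-sided sign-flip permutation over replicates, whose smallest p is 0.5. Regions named are the 10 strongest members, the 2 strongest of each arm (with a tie on 2L), the 5 narrowest, the 5 on either side of the value limit, the 5 most different between replicates in each direction and the 5 closest pairs. Members, comparison sets and named regions were chosen with earlier results of these data known. The bins, the part of each arm, the distance classes and the run of 3 were chosen after the values were seen. The rule and covered shares were tested on simulated data. Sequence features were planned and not run, as no genome of release 5 was used here. Python 3.11.15, NumPy 2.4.6, pandas 2.3.3, SciPy 1.17.1 and matplotlib 3.10.9 were used.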

Additional observations from a re-analysis of the deposited data

Results flagged for a closer look

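The covered share of the 50 kb on either side of compact strong clusters, minus that of weaker compact clusters, had opposite directions on different arms in every replicate. It was 2.97 percentage points on 2L (2.36 in replicate 1 and 3.57 in replicate 2) and 3.203 on 2R (2.93 and 3.47). It was -2.20 on 3R (-2.18 and -2.22). The difference between arms was not tested. All weaker compact clusters were used, and no value by arm is given for those at least as wide as the narrowest member.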

How the results depend on the processing

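With 2 libraries and no read counts, no result could pass a test at 0.05, and depth sets no stated limit. Of 60 alternative values, 44 kept the direction of the mean difference, moved by less than the spread between replicates or, for counts and rates, stayed within 1.5 times. The 44 include settings where the replicates differed in direction. For the covered share these were the window of 100 kb and the weaker clusters no narrower than any member. For the neighbour's value it was the maximum width of 3000 bp. The other 16 follow from stricter limits of the rule and from the boundary offset, which has no spread. A minimum value of 0.9 left 106 members, with 1.31 per Mb on 2L, 1.81 on 2R, 1.07 on 3L and 1.17 on 3R, a median value of 1.13, a median width of 3146.5 bp and a boundary offset of 84.5 bp. A maximum width of 3000 bp left 91, with 1.21, 1.57, 0.974 and 0.878 per Mb, a median width of 2548.5 bp and an offset of 88.5 bp. A nearer neighbour within 10000 bp gave an offset of 106 bp and 250 members, and a reciprocal overlap of 50% gave 269. Leaving out a replicate, with overlap asked of the other alone, left 270 members either way. This count could not change, as no cluster that met the other parts of the rule overlapped a single list only. The combined list itself still drew on both libraries. The medians were then those of the replicate left in, from 0.86 to 0.96 for the value and from 2897 to 2983.5 bp for the width. The single-match share ran from 99.6% to 100%. The difference in covered share ranged from 1.03 points without replicate 2 to 1.89 without replicate 1, where the pooled value was 1.09, and that of the neighbour's value from 0.05 to 0.10. With both overlaps asked, the covered-share difference was 0.863 in replicate 1 and 1.32 in replicate 2. The members were the same, so the change came from the weaker compact set, which then needed overlap with a single list. Over the other alternatives the covered-share difference ran from 0.0276 in a window of 100 kb to 1.73 with a maximum width of 3000 bp. Without replicate 1 both differences exceeded the pooled value by more than 1.5 times. The comparison with weaker clusters no narrower than any member was chosen after the data were seen and gave 0.151 points. No paired analysis was possible because the inputs that share replicate numbers with the ChIP libraries have no list here.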

Other observations

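Strong narrow clusters left out for their spacing differed in their surroundings by the construction of the rule. The 71 that lay under 500 bp from a neighbour had median values of 0.89 in replicate 1 and 0.99 in replicate 2, close to those of the members, and other clusters covered 33.0 ± 1.03% of the 50 kb on either side (SD, n = 2). The 6 with no neighbour within 20 kb had median values of 1.02 and 1.03, and a covered share of 9.04 ± 0.918%.

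In addition, 7 combined clusters met every part of the rule except overlap with the replicate lists. They overlapped no cluster of either list, were 1000 to 1166 bp wide and had combined values of up to 3.33, with a median of 1.81. No cluster that met the other parts of the rule overlapped the list of a single replicate only.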
